A study of Saccharomyces cerevisiae with 180 samples.

Results

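The 10 genes described here belong to the central carbon metabolism of Saccharomyces cerevisiae, 9 of them of the tricarboxylic acid (TCA) cycle or its citrate synthase family and 1, MAE1, of the malic enzyme beside it. They were taken by gene symbol from the deposited table of log ratios, in which they were 10 of 5605 named genes, each measured by 1 probe. The cycle genes are CIT1, CIT2, CIT3, ACO1, IDH1, IDH2, KGD1, KGD2 and MDH1. On 180 arrays with 2 colours, RNA of 90 cultures was hybridised against a single pool of BY4716 RNA, with the dyes exchanged between the 2 arrays of each culture. Every value below is a log2 ratio of a culture over that pool, averaged over both arrays. No source gives the base of the logarithm, which was read as 2 from the range of the values.

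There were 2 independent cultures of BY4716, a laboratory strain, and 2 of RM11, a haploid derivative of a vineyard isolate. A further 86 cultures came from 1 haploid progeny strain (segregant) each of a cross of BY4716 with RM11-1a, which was treated as identical to RM11. The strains differ in marker genes: LYS2 is deleted in BY4716, of mating type alpha, while LEU2, URA3 and HO are deleted in RM11, of mating type a. These deletions and the mating types therefore differ between the parents and segregate in the progeny. Growth conditions and ages of the cultures are not given in the sources used here. The ratios pointed the same way for 5 of 5 genes checked among those that the genotypes fix: LEU2, URA3, HO, STE2 and STE3. LEU2 stood at -0.13 in BY4716 and -5.68 in RM11. LYS2 was not among the genes checked. An array held between 3769 and 6570 values, and the arrays of a segregant correlated across genes with a median r of 0.754, from 0.435 to 0.907. Each value is an average over all cells of a culture, so fewer cells with a transcript and less transcript per cell cannot be told apart.

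The TCA cycle oxidises acetyl-CoA in the mitochondrial matrix and passes the electrons to the respiratory chain. In yeast, glucose represses most of its genes, and the Hap complex, which binds CCAAT boxes, activates many of them. Yeast also carries a peroxisomal citrate synthase, CIT2, which feeds the glyoxylate cycle and is the classic target of the retrograde pathway, in which Rtg1 and Rtg3 respond to the state of the mitochondria. Where respiration is weak, Rtg1 and Rtg3 also maintain CIT1, ACO1, IDH1 and IDH2, the genes of the first steps of the cycle, which supply alpha-ketoglutarate for glutamate synthesis.

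The first comparison was between the parents. All 9 genes that could be tested, the 10 without CIT3, were higher in RM11. Over all genes, 18.2 percent of 3256 tested were called higher. The rises of the 9 genes lay between 1.29-fold and 5.34-fold, with a median difference of 0.62 log2 units against 0.10 over all genes tested. The test was limma on the 4 cultures, with Benjamini-Hochberg adjustment over all genes and a threshold of 0.05.

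**Figure D1:**
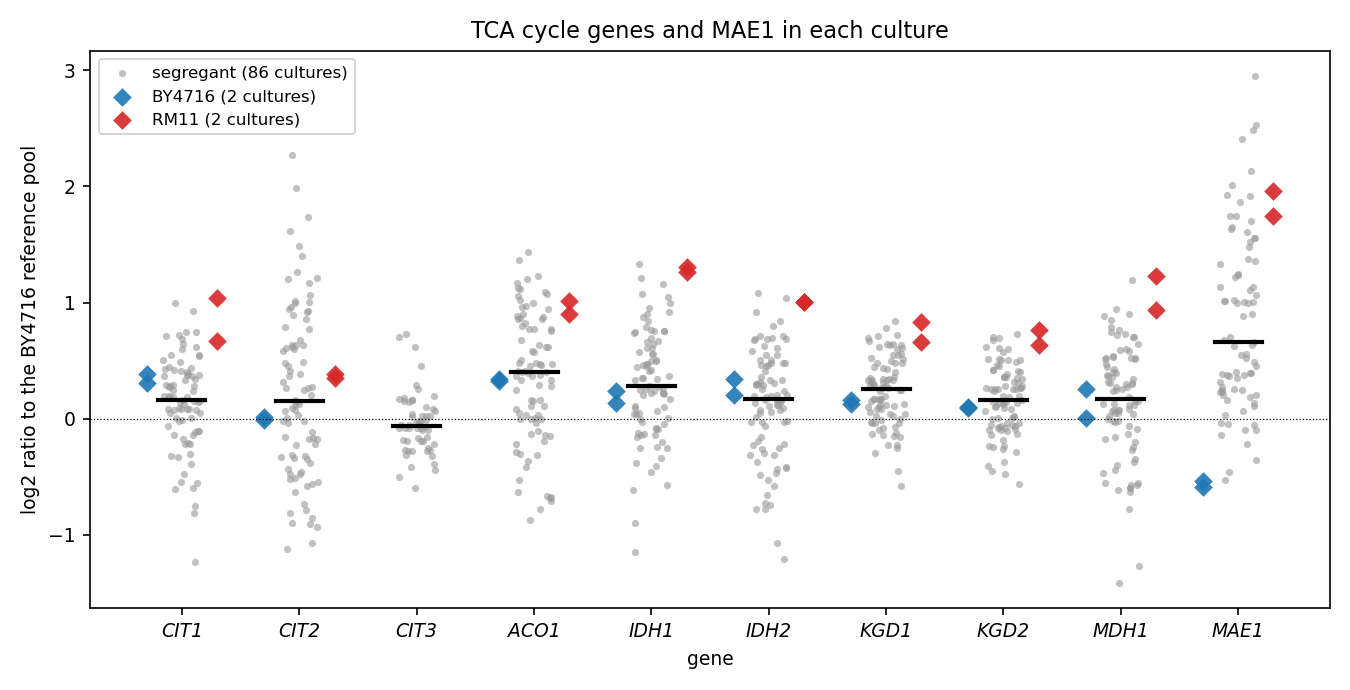
Log2 ratio to the BY4716 reference pool (vertical axis) of each of the 10 genes (horizontal axis) in every culture, with grey points for segregants, blue diamonds for BY4716, red diamonds for RM11 and a black line at the segregant median. The 9 genes with parental values were called higher in RM11, as were 18.2 percent of all genes tested. The segregants of CIT2 and MAE1 spread most widely, with SDs of 0.74 and 0.765.

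Citrate synthase condenses acetyl-CoA with oxaloacetate. CIT1, the mitochondrial enzyme, stood at 0.39 and 0.31 in the BY4716 cultures and at 1.04 and 0.67 in the RM11 cultures. The strains did not overlap, but the RM11 cultures lay farther from each other than the lower of them lay from BY4716. The difference was 0.51 (SE 0.14, adjusted p = 0.0495 in limma), the closest of the 9 to the threshold. This call was lost with each array centred on its median (adjusted p = 0.0722), on the arrays of either dye title alone (0.0602 and 0.0841) and with genes required on only 1 array of each culture (0.073). CIT2, the peroxisomal enzyme, stood at 0.01 and -0.01 in BY4716 and at 0.35 and 0.39 in RM11. Its cultures of 1 strain lay close together, and the difference was 0.37 (SE 0.08, adjusted p = 0.0252), the smallest of the 9. CIT3, a minor mitochondrial citrate and methylcitrate synthase, had a value on only 3 of 8 parental arrays. These were -0.08 on 1 array of BY4716 and -0.35 and -0.45 on 1 array of each RM11 culture, so no difference between the parents was tested.

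Aconitase and isocitrate dehydrogenase carry citrate to alpha-ketoglutarate. ACO1, the aconitase, stood at 0.34 and 0.33 in BY4716 and at 1.02 and 0.90 in RM11, a difference of 0.62 (SE 0.08, adjusted p = 0.00651). IDH1 and IDH2 encode the subunits of the NAD-dependent isocitrate dehydrogenase. IDH1 stood at 0.14 and 0.24 in BY4716 and at 1.30 and 1.26 in RM11, which was 2.14-fold higher (log2 difference 1.10, SE 0.08, adjusted p = 0.000932). IDH2 stood at 0.20 and 0.34 in BY4716 and at 1.01 in both RM11 cultures, which was 1.66-fold higher (0.73, SE 0.09, adjusted p = 0.00418). In each of these 3 genes the gap between the strains was several times the distance between the cultures of either strain.

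The later steps run from alpha-ketoglutarate to oxaloacetate. KGD1 and KGD2, the E1 and E2 components of alpha-ketoglutarate dehydrogenase, rose alike in RM11, by 0.60 each (SE 0.09 each, adjusted p = 0.00967 and 0.008). KGD1 stood at 0.12 and 0.16 in BY4716 and at 0.83 and 0.66 in RM11. KGD2 stood at 0.10 and 0.09 in BY4716 and at 0.76 and 0.63 in RM11. MDH1, the mitochondrial malate dehydrogenase that closes the cycle, stood at 0.26 and 0.01 in BY4716 and at 0.94 and 1.23 in RM11. Its cultures spread more widely within each strain, and the difference was 0.95 (SE 0.14, adjusted p = 0.00883), or 1.93-fold.

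MAE1, the mitochondrial malic enzyme, converts malate to pyruvate and so leads out of the cycle. It stood at -0.59 and -0.54 in BY4716 and at 1.74 and 1.96 in RM11. It was 5.34-fold higher in RM11 (2.42, SE 0.10, adjusted p = 0.000138), the largest difference of the 9. Both BY4716 cultures lay below the pool of their own strain.

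None of the 9 genes, and 0 percent of all genes, was called between the BY4716 cultures and the BY4716 pool by limma, where the lowest adjusted p was 0.105. At an unadjusted p under 0.05 there were 5 of the 9 genes and 616 genes in all. The pool is a single sample and its own spread was not included. The ratios of the segregants given below are all relative to it.

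Leaving out a parental culture leaves its strain with 1. That strain is then assumed to vary like the other, whose 2 cultures alone give the spread. Fewer of the 9 genes, and fewer genes in all, were called without either BY4716 culture. Without either RM11 culture more genes in all were called. Without the first or the second BY4716 culture the differences were 0.63 and 0.62 for ACO1 and 0.60 and 0.59 for KGD2. MDH1 moved more, from 0.95 to 1.07 and 0.82. Why the calls were lost was not tested. Between-array quantile normalization, which gives the arrays 1 common spread, left IDH1, KGD1, KGD2 and MAE1 called and put CIT1 at a difference of -0.00. With it, 746 of 3256 genes were called in either direction, against 869 with the ratios as deposited. As deposited, the SD over genes was 0.692 to 0.873 on RM11 arrays and 0.198 to 0.299 on BY4716 arrays.

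**Figure D2:**
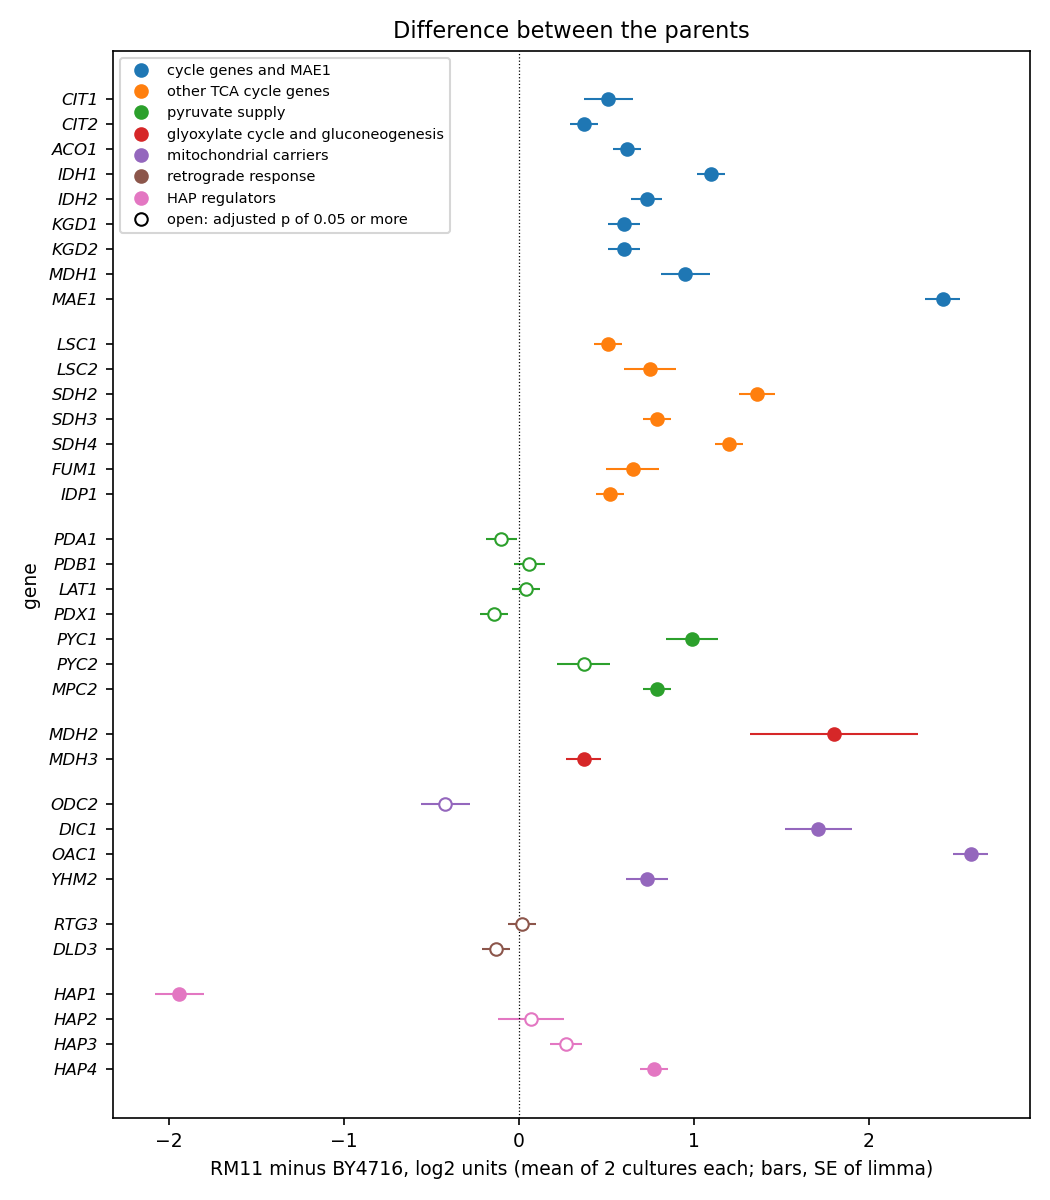
Difference RM11 minus BY4716 in log2 units (horizontal axis, 2 cultures per strain, bars are the SE of limma) for the genes described here and for 6 lists of related genes (vertical axis), with filled points for an adjusted p under 0.05. The 9 genes of the cycle and MAE1 and all 7 other TCA cycle genes tested lie to the right of 0, MAE1 and the oxaloacetate carrier OAC1 farthest.

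The rest of the cycle followed the same direction. Of 9 other TCA cycle genes on the list, 7 could be tested. All 7 were higher in RM11, against 18.2 percent of all genes tested, with a median difference of 0.75. SDH2, the iron-sulfur subunit of succinate dehydrogenase, stood at 0.30 and 0.36 in BY4716 and at 1.80 and 1.58 in RM11, a difference of 1.36 (SE 0.10, adjusted p = 0.000946). SDH4, a membrane subunit of the same enzyme, was higher by 1.20 (SE 0.08) and SDH3, its other membrane subunit, by 0.79 (SE 0.08). LSC1, LSC2, FUM1 and IDP1 were the other 4, between 0.51 and 0.75.

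Of the genes that bring pyruvate into the cycle, 2 of 7 tested were called higher, against 18.2 percent of all genes. PYC1, a pyruvate carboxylase, which makes oxaloacetate from pyruvate in the cytosol, was higher by 0.99 (SE 0.15, adjusted p = 0.00948). MPC2, a subunit of the mitochondrial pyruvate carrier, was higher by 0.79 (SE 0.08, adjusted p = 0.00265). The 4 subunits of pyruvate dehydrogenase on the list, PDA1, PDB1, LAT1 and PDX1, had differences between -0.14 and 0.06 and did not pass.

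Both tested malate dehydrogenases outside the mitochondrion were higher, against 18.2 percent of all genes tested. The cytosolic MDH2, of gluconeogenesis, stood at 0.14 and 0.08 in BY4716 and at 2.68 and 1.14 in RM11, so that the RM11 cultures differed widely (difference 1.80, SE 0.48, adjusted p = 0.0472). The peroxisomal MDH3 was higher by 0.37 (SE 0.10, adjusted p = 0.0424). The other 8 genes of the glyoxylate cycle and gluconeogenesis on the list, ICL1 and MLS1 among them, lacked a value on at least 1 parental array and were not tested.

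Of the 7 mitochondrial carriers of cycle intermediates on the list, 4 could be tested and 3 were higher, against 18.2 percent of all genes tested. OAC1, the oxaloacetate carrier, stood at -0.24 and -0.19 in BY4716 and at 2.46 and 2.26 in RM11, a difference of 2.58 (SE 0.10, adjusted p = 0.000103). DIC1, the dicarboxylate carrier, was higher by 1.71 (SE 0.19) and YHM2, a carrier of citrate and oxoglutarate, by 0.73 (SE 0.12).

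Of 4 HAP regulators tested, 1 was called higher in RM11 and 1 lower, against 591 and 278 of 3256 genes. HAP2 and HAP3, subunits of the CCAAT-binding complex, differed by 0.07 and 0.27 and were not called. HAP4, the activating subunit of the CCAAT-binding complex, stood at 0.13 and 0.24 in BY4716 and at 0.94 and 0.97 in RM11, a difference of 0.77 (SE 0.08, adjusted p = 0.00308). HAP1, a heme-responsive activator of respiratory genes, was lower in RM11, at -1.62 and -1.97 against 0.22 and 0.07 (difference -1.94, SE 0.14, adjusted p = 0.000789). Of the retrograde list RTG3 and DLD3 could be tested and neither passed. DLD3, a cytosolic D-lactate dehydrogenase and a target of the same pathway as CIT2, stood at -0.12 and -0.05 in BY4716 and at -0.25 and -0.20 in RM11 (difference -0.13, SE 0.08, adjusted p = 0.265).

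The second question was how the 10 genes vary in the segregants. All 9 testable genes varied more among segregants than between cultures of the same parent, in a one-sided F test with the error variance moderated by limma, where 58.4 percent of 3193 genes passed. Their median SD over segregants was 0.479, against 0.251 over all genes. No gene of the 9 fell in 2 clusters, as 1.08 percent of all genes did in a normal mixture fit. With a parental culture left out, the error comes from the cultures of the other strain alone. Fewer genes then passed without either BY4716 culture, among the 9 and over all genes. Without either RM11 culture more genes in all passed.

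CIT2 and MAE1 had the widest ranges. CIT2 lay between -1.12 and 2.27 in 86 segregants, with a median of 0.15, which is a 10.5-fold range (adjusted p of the variance test 0.00188). Of these segregants 34 lay above all 4 parental cultures and 35 below them, although the parents differed by only 0.37. MAE1 lay between -0.53 and 2.95 in 81 segregants, with a median of 0.66 (adjusted p 0.00299). Here 6 segregants lay above all parental cultures and none below.

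Most segregants had less transcript of each mitochondrial enzyme of the cycle than the mean of the RM11 cultures. ACO1 had 14 segregants above that mean, and the other mitochondrial cycle enzymes tested had 1 or 2 each. IDH1 lay between -1.15 and 1.34 with a median of 0.28 and an SD of 0.479 in 85 segregants (adjusted p of the variance test 0.00535). IDH2 lay between -1.21 and 1.08 with a median of 0.17, and ACO1 between -0.88 and 1.44 with a median of 0.40, in 86 segregants each. ACO1 had the widest spread of the mitochondrial cycle enzymes tested, with an SD of 0.558.

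CIT1 lay between -1.24 and 1.00 in 81 segregants, with a median of 0.16. MDH1 lay between -1.41 and 1.19 in 86, with a median of 0.17. Of the 9 tested genes, the subunits of alpha-ketoglutarate dehydrogenase varied least. KGD1 ran from -0.58 to 0.84 and KGD2 from -0.56 to 0.73, each with an SD of 0.296. CIT3 had both arrays in 56 segregants, where it ran from -0.60 to 0.73 with an SD of 0.269, and it was not tested.

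The segregant mean was called below the midpoint of the parental means for 7 of the 9 genes, and called above it for none. Over all 3193 genes tested, 6.3 percent were called below and 116 genes above. The midpoint test used the same parental cultures as the first comparison. The 7 are the mitochondrial enzymes of the cycle, CIT1, ACO1, IDH1, IDH2, KGD1, KGD2 and MDH1. Their BY4716 means, which enter the midpoint, all lay above the BY4716 pool, from 0.10 for KGD2 to 0.35 for CIT1, and none was called. The segregant means of CIT1 and IDH2, 0.14 and 0.12, lay below the BY4716 means of 0.35 and 0.27, and those of the others lay above theirs. The part of this parental offset in the midpoint differences was not tested. IDH2 lay below the midpoint by the most, with a difference of -0.52 (SE 0.07, adjusted p = 7.55e-06), and KGD1 by the least (-0.21, SE 0.06, adjusted p = 0.0386). For CIT2 the difference was 0.05 (SE 0.09, adjusted p = 0.759) and for MAE1 0.19 (SE 0.10, adjusted p = 0.192). For CIT1, KGD2 and MDH1 no segregant lay above all 4 parental cultures, for IDH1 and KGD1 1 did and for IDH2 2, while between 28 and 53 segregants lay below them. ACO1 had 11 above and 36 below. Without either BY4716 culture the differences stayed close to those above (ACO1 -0.28 and -0.29). Fewer genes, among the 9 and over all genes, then differed from the midpoint by the test, again with the spread of the RM11 cultures alone. MAE1 was called above the midpoint after quantile normalization (1.10, adjusted p = 0.00268) and without the second RM11 culture (0.24, adjusted p = 0.0327).

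The third question was how mitochondrial and peroxisomal citrate synthase relate. Ratios of different probes do not compare amounts of RNA, so the difference of the CIT1 and CIT2 log ratios describes only how far each moved from the pool. It was 0.37 and 0.32 in BY4716 and 0.69 and 0.29 in RM11, so that the strains overlapped. The difference between strains was 0.14, with an exact two-sided permutation p of 1.0, where 2 against 2 cultures cannot give less than 0.333. Without the first RM11 culture it was -0.06. In 81 segregants the difference of log ratios ran from -2.45 to 1.44, with a median of 0.09 and an SD of 0.824. CIT1 had the higher ratio in 44 segregants and CIT2 in 37, and 54 segregants lay below all 4 parental cultures.

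CIT1 and CIT2 showed little relation over the segregants. Their Pearson r was 0.08 (n = 81, permutation p = 0.459, adjusted p = 0.607), Spearman rho was 0.15 (permutation p = 0.186), and r was 0.13 without the 2 segregants with CIT1 farthest from the median. Of the 10 segregants with the highest CIT1 and the 10 with the highest CIT2, 2 were the same. All correlations below are over segregants, were tested with 100000 permutations and were adjusted over 45018 pairs of 1 of the 9 genes with any gene; an adjusted p of 0.00017 belongs to the smallest p that the permutations can give, 1e-05.

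**Figure D3:**
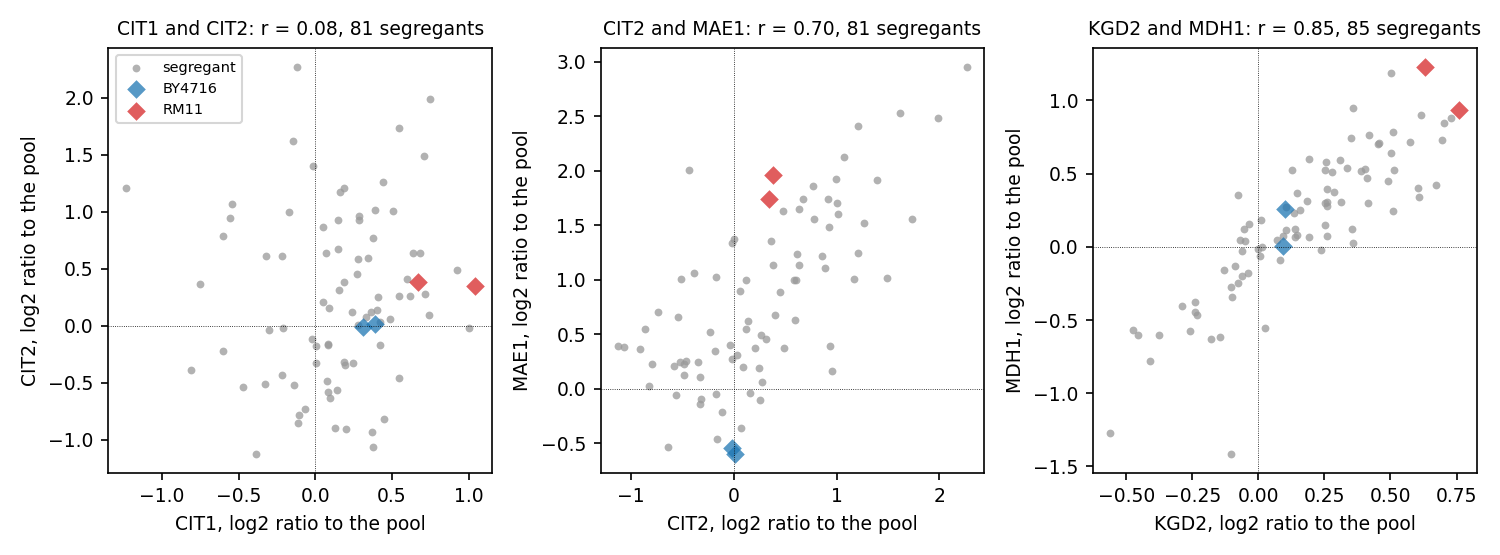
Log2 ratios to the pool of CIT2 against CIT1, MAE1 against CIT2 and MDH1 against KGD2 (axes as labelled), with 1 grey point per segregant, blue diamonds for BY4716 and red diamonds for RM11. The first pair forms a shapeless cloud (r = 0.08), while the second (r = 0.70) and the third (r = 0.85) rise from lower left to upper right.

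The 7 mitochondrial enzymes rose and fell together. All 21 pairs among them had a positive r that passed, between 0.43 and 0.88 with a median of 0.65, and rho between 0.49 and 0.87. Over all pairs of 1 of the 9 genes with any gene, 14.7 percent were called positive and 17.7 percent negative, and over all pairs of genes the median r was 0.00, with 95 percent of them between -0.47 and 0.53. When 1 gene of a pair was taken from the arrays titled Cy3 and the other from those titled Cy5, so that no array was shared, the median r of the 21 pairs was 0.59.

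The subunits of isocitrate dehydrogenase were close partners. IDH1 and IDH2 had the highest r of all, 0.88 (n = 85, rho 0.87, adjusted p = 0.00017), and shared 7 of their 10 highest and 8 of their 10 lowest segregants. KGD1 and KGD2 had an r of 0.76 (n = 85, rho 0.75, adjusted p = 0.00017). Each had a higher r with SDH2, 0.78 for KGD1 and 0.84 for KGD2. KGD2 had an r of 0.85 with MDH1 (n = 85, rho 0.87, adjusted p = 0.00017). The lowest values among the 7 were those of MDH1 with IDH1 (0.43) and with IDH2 (0.46).

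A pattern that runs through much of the transcriptome moved with the 7 enzymes. The first principal component of all genes held 19.6 percent of the variance, with GAD1, a glutamate decarboxylase, and GDB1, the glycogen debranching enzyme, at its positive end and NOP56 and NOP58, of ribosome biogenesis, at its negative end. It correlated with the 7 enzymes with r between 0.46 and 0.62, with CIT2 at -0.01 and with MAE1 at -0.05. With this component removed the median r of the 21 pairs was 0.53, and 2 pairs lost their call, MDH1 with IDH1 (0.24, adjusted p = 0.125 by permutation) and with IDH2 (0.23, adjusted p = 0.134).

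**Figure D4:**
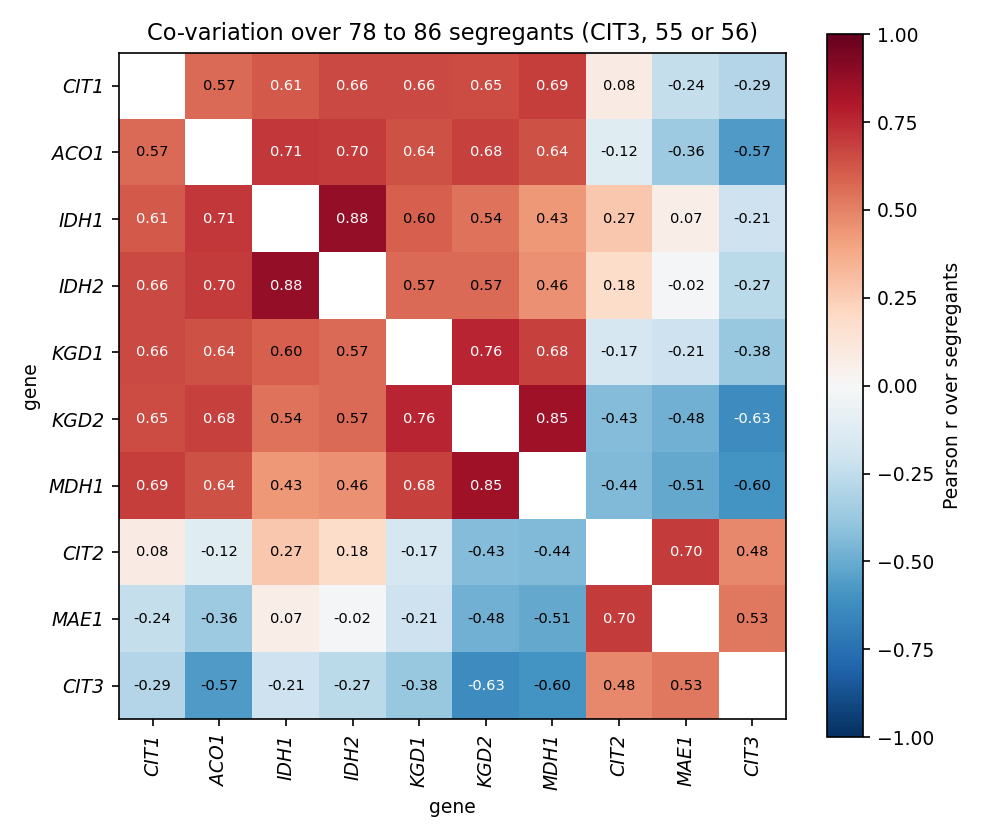
Pearson r over segregants for each pair of the 10 genes (both axes), with red for positive and blue for negative values. The 7 mitochondrial enzymes form a red block with r between 0.43 and 0.88, and CIT2, MAE1 and CIT3 form a smaller one of 0.48 to 0.70. Pairs with CIT3 were not tested.

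CIT2 co-varied with MAE1. The pair had an r of 0.70 (n = 81, rho 0.65, adjusted p = 0.00017), which was 0.65 without the 2 segregants with the most extreme CIT2 and 0.66 between arrays of opposite dye titles. Their 10 highest segregants had 5 in common. With the 7 mitochondrial enzymes CIT2 had an r between -0.44 and 0.27. It was negative and called with MDH1 (-0.44, rho -0.35, adjusted p = 0.000377) and KGD2 (-0.43, rho -0.39, adjusted p = 0.00102), and positive and called with IDH1 (0.27, rho 0.23, adjusted p = 0.0439). The last call was lost with Spearman rho (adjusted p = 0.0844), after quantile normalization (0.19, adjusted p = 0.177) and on arrays titled Cy3 (0.24, adjusted p = 0.082), and r was -0.02 in the low LEU2 cluster described below.

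MAE1 was negative and called with MDH1 (-0.51, rho -0.45, adjusted p = 0.00017), KGD2 (-0.48, rho -0.46, adjusted p = 0.000278) and ACO1 (-0.36, rho -0.27, adjusted p = 0.00589). MDH1 and MAE1 both use malate. With IDH1 and IDH2 the r of MAE1 was 0.07 and -0.02 (n = 81, adjusted p = 0.698 and 0.896 by permutation). In all, 23 of 36 tested pairs were called positive and 5 negative. CIT3, with 55 or 56 segregants and no test, had r between -0.63 with KGD2 and 0.53 with MAE1, and 0.48 with CIT2, which was 0.31 without the 2 segregants with the most extreme CIT2. The rho of CIT3 was 0.21 with CIT2 and 0.38 with MAE1. In the high LEU2 cluster described below its r was -0.16 with CIT2 and 0.21 with MAE1.

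CIT2 and MAE1 stood higher in segregants with little LEU2 signal. LEU2, which RM11 lacks, fell in 2 clusters of 44 segregants with a ratio from -6.33 to -3.95 and 42 from -1.46 to 0.95. CIT2 had a median of 0.66 in the low LEU2 cluster, from -0.73 to 2.27, and of -0.32 in the high one, from -1.12 to 0.78. MAE1 had medians of 1.23 and 0.27. The groups overlapped for both genes. These clusters were read from the data and no test was made. A split by LEU2 also splits the segregants by the parental alleles of genes linked to it, and these cannot be told apart from LEU2 here. CIT2 lies on chromosome III and MAE1 on chromosome XI. The 7 mitochondrial enzymes had medians closer together, such as 0.12 and 0.30 for MDH1 and 0.41 and 0.09 for IDH1.

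Within the low LEU2 cluster CIT2 and MAE1 had an r of 0.60, and within the high cluster 0.30. CIT2 with MDH1 had -0.57 and -0.17. The 21 mitochondrial pairs had a median r of 0.61 in the low cluster and 0.74 in the high one. The part of LEU2 in the pooled values was not tested.

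The genes most like each of the 9 were taken as the 5 with the highest r among 4998 others. For CIT2 they were DLD3, OAC1, YMC2, DIC1 and ILV2. DLD3 had an r of 0.86 (n = 85, rho 0.84, adjusted p = 0.00017), and of 0.87 and 0.70 within the low and high LEU2 clusters. YMC2, a mitochondrial carrier, OAC1 and DIC1 each had 0.72, and ILV2, an enzyme of branched-chain amino acid synthesis, had 0.71. Within the high LEU2 cluster the r of CIT2 was 0.15 with OAC1, 0.33 with YMC2, 0.28 with DIC1 and 0.20 with ILV2.

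For MAE1 they were ILV2 at 0.82, BAT1, the mitochondrial branched-chain aminotransferase, at 0.80, FSF1 at 0.77, OAC1 at 0.75 and ISU2, a scaffold of iron-sulfur cluster assembly, at 0.71. All 5 had an adjusted p of 0.00017 by permutation, over 73 to 81 segregants. In the high LEU2 cluster these r lay between 0.34 and 0.46. The mixture fit of OAC1 favoured 2 groups whose means lay 3.13 SDs apart, short of the limit of 4 used here. The lowest r of MAE1 was with RAS2, a GTPase that activates adenylate cyclase, at -0.60, and it was -0.59 in the low LEU2 cluster and -0.08 in the high one.

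MDH1 and KGD2 were most like genes of the respiratory chain and the ATP synthase. The 5 of MDH1 were INH1, an inhibitor of the ATP synthase (0.85), SDH2 (0.85), ATP15 (0.84) and ATP4 (0.83), subunits of that enzyme, and SDH3 (0.81). The 5 of KGD2 were ATP15 (0.86), SDH3 (0.85), SDH2 (0.84), INH1 (0.83) and SDH4 (0.83). KGD1 was most like COX9, a subunit of cytochrome c oxidase (0.79), and SDH2 (0.78), followed by VRL1 (0.77), ECM38 (0.76) and the NADH dehydrogenase NDI1 (0.76). The lowest r were those of MDH1 with STB6 (-0.71), KGD2 with AFT1, an iron-responsive activator (-0.71), and KGD1 with WRS1 (-0.68).

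The early steps shared some of these neighbours, such as SDH2, SDH3, SDH4, ATP15, COX9 and VRL1, and had others besides. RAV2, a part of the complex that assembles the vacuolar ATPase, led for both IDH1 (0.74, n = 72) and IDH2 (0.76, n = 73). CRT10 led for ACO1 (0.75, rho 0.88, n = 86) and came next for IDH1 (0.62, rho 0.75, n = 85). ACO1 was followed by ATP2, a subunit of the ATP synthase (0.75), with ATP15, VRL1 and DMO1 at 0.74. IDH1 went on with SDH4 (0.61), COX9 (0.61) and UBC5 (0.58), and IDH2 with YAK1, SDH4 and AAC1 at 0.63 and GLC3 at 0.61. CIT1 had r of 0.67 or 0.68 with ARA1, TMH11, SDH3, SDH2 and COR1, the last a subunit of the cytochrome bc1 complex. The lowest r were -0.71 for ACO1 with HOT13, -0.56 for IDH1 with POP5, -0.63 for IDH2 with SER2 and -0.60 for CIT1 with PRO1. All of these passed with an adjusted p of 0.00017.

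**Figure D5:**
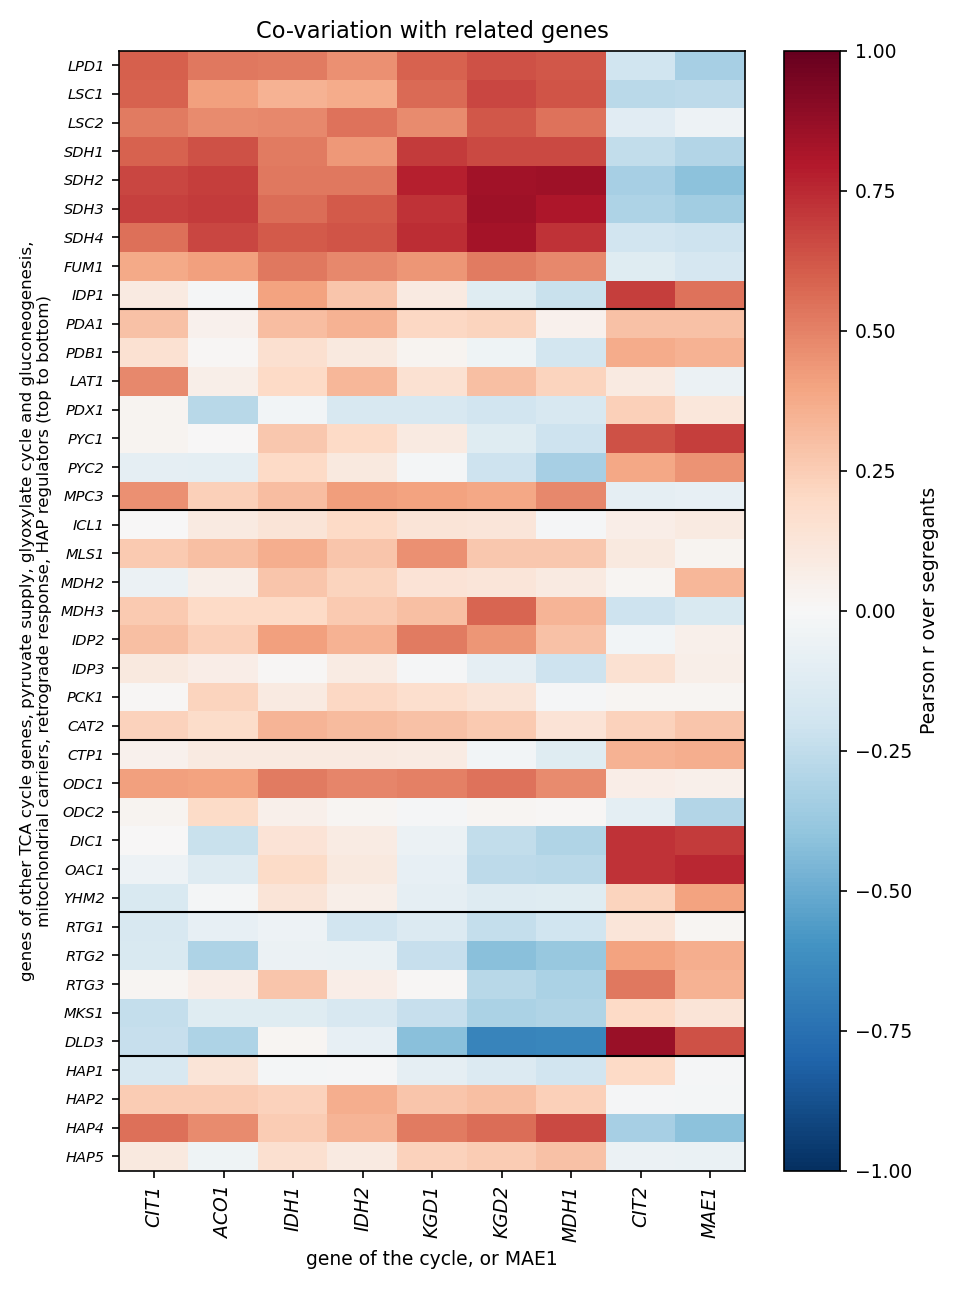
Pearson r over segregants of each gene of the cycle and MAE1 (horizontal axis) with genes of 6 related lists (vertical axis, lists divided by black lines), with red for positive and blue for negative values. The other TCA cycle genes are red with the mitochondrial enzymes except for IDP1, which with DIC1, OAC1, PYC1 and DLD3 is red with CIT2 and MAE1.

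The same division appeared in some of the related lists but not in all. The list of the glyoxylate cycle and gluconeogenesis had a median r of 0.19 with the 7 mitochondrial enzymes. With each of CIT2 and MAE1 its median r was 0.05. The other TCA cycle genes had a median r of 0.59 with the 7 mitochondrial enzymes, -0.20 with CIT2 and -0.26 with MAE1, and 8 of 9 were called positive with MDH1, against 910 of 4998 genes. IDP1, the mitochondrial NADP-dependent isocitrate dehydrogenase, differed from that list, with an r of 0.69 with CIT2 (n = 86, rho 0.68, adjusted p = 0.00017) and 0.54 with MAE1. In the low and high LEU2 clusters these were 0.67 and 0.40 with CIT2, and 0.52 and -0.08 with MAE1. Its r with MDH1 was -0.22, and 0.00 without the 2 segregants with the most extreme MDH1. The median over all genes outside the 10 was -0.04 with the 7 enzymes and -0.02 with each of CIT2 and MAE1.

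Of the genes that supply oxaloacetate, PYC1 had an r of 0.64 with CIT2 (n = 77) and 0.69 with MAE1 (n = 72, adjusted p = 0.00017 each by permutation), and 0.00 with ACO1. In the high LEU2 cluster PYC1 had 0.30 with CIT2 and 0.24 with MAE1. PYC2, the other pyruvate carboxylase, had 0.39 with CIT2 and 0.45 with MAE1. Its call with CIT2 was lost with Spearman rho (0.21, adjusted p = 0.128 by permutation). RTG3, a transcription factor of the retrograde pathway, had 0.53 with CIT2 (rho 0.44, adjusted p = 0.00017), with 0.52 in the low LEU2 cluster and 0.09 in the high one. RTG1, the other transcription factor of that pathway, had 0.12 with CIT2 (n = 72, adjusted p = 0.476 by permutation) and 0.02 with MAE1. DLD3 was negative with MDH1 (-0.65) and KGD2 (-0.66, n = 85 and adjusted p = 0.00017 each by permutation). Of the retrograde list, 3 of 5 genes were called positive with CIT2 and 3 with MAE1, against 527 and 463 of 4998 genes; ICL2, of that list, fell in 2 clusters and was left out.

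HAP4 went with most of the mitochondrial enzymes. It had a median r of 0.52 with the 7 mitochondrial enzymes, highest with MDH1 (0.66, n = 86, rho 0.58, adjusted p = 0.00017). The lowest was with IDH1 and was not called (0.25, adjusted p = 0.0601 by permutation). With CIT2 it had -0.33 (rho -0.24) and with MAE1 -0.41 (rho -0.30). HAP2 and HAP5, other subunits of the CCAAT-binding complex, had median r of 0.25 and 0.16 with the 7 enzymes. HAP1, which was lower in RM11, had a median r of -0.09 with the 7 enzymes.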

How the data were processed

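The values are log2 ratios, deposited by the authors as 1 table of 180 arrays; per the labels each ratio sets a culture against a reference pool of BY4716, and the dye is part of the array title. The deposited arrays have a mean of 0 and medians between -0.063 and 0.074. Their lowest value, -11.28, would be a 2482-fold difference in base 2 and a 78991-fold one in natural logarithm, above the 65536 steps of a 16-bit scanner. The scanner, the filter on spots and the corrections for background and dye are not given in the sources used here. Of 7085 probes, 5645 had 1 gene symbol, 1440 had none and no probe had several. All 5645 gene identifiers matched the RefSeq table of assembly R64. Probes of a gene were averaged, which gave 5605 genes.

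Both arrays of a culture were averaged, and a culture with only 1 value was treated as missing. Parents were compared with limma 3.58.1 in R 4.3.3 (lmFit, eBayes) restricted to genes measured on each of the 8 parental arrays. The segregant variance was set against the moderated variance between cultures of a parent (5.28 degrees of freedom), and the segregant mean against the parental midpoint with Welch-Satterthwaite degrees of freedom. Both used genes measured in 80 percent or more of the segregants. Mixtures were fitted with mclust 6.1.1. A gene fell in 2 clusters where the gain in BIC exceeded 10, the distance of the means exceeded 4 component SDs and 20 percent or more of the segregants were in the smaller cluster. Correlations, their permutations and the exact test used Python 3.11.15 with numpy 2.4.6 and scipy 1.17.1. Benjamini-Hochberg adjustment ran over all genes, or all pairs, tested. Steps were tested on simulated data.

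The genes described, the 6 lists of related genes and the tests were chosen with earlier results of these data known. Named were all 10 genes, up to 3 higher and 3 lower genes of each list with the largest called difference, the 5 highest and 1 lowest correlates of each gene, HAP1 and HAP4. Other genes named, such as IDP1, RTG3, the pyruvate dehydrogenase subunits and the ends of the first component, were chosen after their values were seen. No pooled r is given for LEU2, the lowest correlate of CIT2, since it falls in 2 clusters. The same-numbered parental cultures share only a number: their deviations from the strain means correlated with r = 0.19 over 3256 genes, for 2 pairs. Alternatives covered centring, quantile normalization, each dye alone, omission of a culture, the block, filters, the error, rank correlation, the first component and the first number of the segregant titles. No spot intensities entered the analysis, and precision is limited by how many arrays and cultures there are.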

Additional observations from a re-analysis of the deposited data

How the results depend on the processing

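With 2 cultures per parent, the number of cultures limits all parental tests. Of the 9 genes, the number called between parents was 2 to 9 when a parental culture was left out, against 9 with all cultures. It was 4 after quantile normalization, where CIT1 reversed to -0.00, and between 7 and 9 under the other alternatives. A replicate block for the number of the parental cultures, which share only that number, gave 9 genes and 830 of all genes, against 869. Against the pool, 0 of the 9 and 0 of 3256 genes were called. After quantile normalization 6 of the 9 and 872 of 3256 genes were. Without either RM11 culture, calls against the pool appeared among the 9 and over all genes, with the spread of the BY4716 cultures alone. Against the pool CIT2 reversed to -0.10 and MDH1 to -0.09 on arrays titled Cy3, and CIT2 to -0.01 without BY4716 replicate 1. Without 1 culture, 2 to 9 genes passed the variance test and 2 to 8 differed from the midpoint, and the other alternatives gave 6 to 9 and 5 to 8. Over all genes the counts without 1 culture were 199 to 1797 between parents, 139 to 3636 for the variance and 47 to 1545 for the midpoint, against 869, 1865 and 317. Further all-gene counts were 533 (parents) and 631 (variance) on arrays titled Cy3, 3403 (variance) on arrays titled Cy5, 3100 with the error taken between dyes, 822 (midpoint) after quantile normalization and 406 for differences of at least 1.5-fold. CIT1 minus CIT2 between strains reversed to -0.24 after quantile normalization, and without 1 culture ran from -0.06 to 0.34. The number of called pairs was 26 to 29, against 28, and over all genes 14560 pairs were called, against 6749 with the first component removed. The r of CIT2 with MAE1 was 0.30 in the high LEU2 cluster, an alternative chosen after seeing the data as was the low cluster, and 0.60 to 0.71 under the others. The r of CIT2 with IDH1 reversed to -0.02 in the low LEU2 cluster, that of IDH1 with MAE1 to -0.10 after quantile normalization, and that of IDH2 with MAE1 to 0.00 with median centring and 0.01 with the first component removed. Leaving out a culture takes the spread from the other strain alone, and the parental, variance and midpoint counts over all genes fell without a BY4716 culture and rose without an RM11 culture. The cause of these shifts was not tested.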

Other observations

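RAV2, which led the correlates of IDH1 and IDH2, and CRT10, which led those of ACO1, are in no list used here. In the high LEU2 cluster of segregants RAV2 had an r of 0.86 with IDH1 and 0.87 with IDH2, and in the low cluster 0.56 and 0.59. CRT10 had an r of 0.92 with ACO1 and 0.82 with IDH1 in the high cluster, and 0.65 and 0.46 in the low one. Over all segregants the Spearman rho of CRT10 with ACO1 was 0.88 and its Pearson r 0.75. These values are a description, and the difference between clusters was not tested.

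DLD3 and CIT2, which had an r of 0.86 over segregants, did not move alike between the parents. CIT2 was higher in RM11 by 0.37 (SE 0.08), and DLD3 differed by -0.13 (SE 0.08). The difference of these differences was not tested.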
